A study of Drosophila melanogaster with 6 samples.

Results

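The 23 long noncoding RNA (lncRNA) genes with the highest read counts were examined in late Drosophila melanogaster embryos that carried a mutation of the lola-O isoform or did not. They were all the genes whose FlyBase symbol begins with lncRNA:, without the dosage compensation genes roX1 and roX2, chosen by their measured level, a mean of at least 5 CPM (counts per 1000000 counts of a sample) over all 6 samples. They made up 23 of 1795 lncRNA genes and 23 of 17559 gene identifiers counted. The mean over all samples chose them without regard to group, so their levels are a description. By group means, 22 of the 23 reached 5 CPM in both groups; lncRNA:CR43855 reached it in the mutants only.

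PolyA RNA was sequenced from pools of 100 whole embryos, 1 pool per sample, aged 20 to 22 hours from laying. The mutant group (n = 3) had the genotype lola-O / Df(2R)ED2076 and the control group (n = 3) Wild type / Df(2R)ED2076, so embryos of both groups carried the same deficiency on the second chromosome. The gene lola gives rise, through many alternative 3′ exons, to a family of BTB zinc-finger proteins with roles in axon guidance, and the labels call lola-O a knockout of isoform O. They do not describe the lesion, and gene counts do not separate isoform O from the other lola transcripts, so the targeted isoform could not be used to check the labels. Whether the 3 pools of a group are independent collections is not stated, so p-values speak only of the spread among the 6 samples, and that spread may be technical. The labels also describe every control as replicate 1, and the extraction text names mutant embryos for all 6 samples; groups follow the titles and genotypes. In bulk embryos, fewer cells of a type and less RNA per cell cannot be told apart.

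LncRNAs are transcripts, often spliced and polyadenylated like mRNAs, that are not known to encode a protein. Some act as RNA, by binding proteins or holding nuclear bodies together; others are the primary transcripts from which microRNAs or small nucleolar RNAs (snoRNAs, guides of ribosomal RNA modification) are cut; for most of the fly genes that carry a CR number, no function is stated here. FlyBase gives many RNAs that lie antisense to a gene the prefix asRNA, and those are not counted here. A polyA library counts the primary transcript or its spliced product, not the mature microRNA or snoRNA.

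Total counts were 16217213 to 22759638 per sample, and the 23 genes had between 704 and 268352 counts over the 6 samples, with at least 85 in each. Marker genes of 10 tissues were checked, with CPM summed over each list and scaled by TMM (trimmed mean of M-values, a scaling by library composition). Their sums in mutants and controls were 1560 to 1657 and 1675 to 1711 for neurons, 239 to 243 and 225 to 235 for glia, 25167 to 25621 and 28611 to 28830 for muscle, 268 to 273 and 296 to 301 for epidermis and cuticle, and 3433 to 3594 and 3818 to 3873 for fat body. They were 253 to 255 and 287 to 294 for haemocytes, 1179 to 1229 and 1189 to 1227 for midgut, 29.2 to 30.8 and 34.5 to 36.3 for the germ line, 670.4 to 674 and 658 to 687 for trachea, and 41.8 to 45.1 and 49.4 to 54.3 for the salivary gland. Of the tested markers, 4 of 6 neuron, 4 of 6 muscle, 2 of 5 epidermal, 1 of 2 fat body, 3 of 4 haemocyte, 3 of 5 midgut, 1 of 1 germ line, 1 of 3 tracheal, 1 of 2 salivary gland and 1 of 5 glia markers fell, while 2 glia, 1 muscle, 1 epidermal and 2 midgut markers rose; over all tested genes 20.2% were higher and 19.5% lower. With each sample's trend on transcript length removed (a fit described below), the counts of higher and lower markers were 2 and 0 for neurons, 1 and 1 for glia, 1 and 3 for muscle, 1 and 2 for epidermis, 1 and 0 for fat body, 0 and 1 for haemocytes, 2 and 3 for midgut, 0 and 1 for the salivary gland, and none for germ line and trachea. The markers Fbp1, Lsp2, bam and Sgs3 were under 1 CPM, and vas, nos and btl were not analysed here. The part of these shifts in the values below was not tested.

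Among the genes with the lncRNA prefix, roX1 and roX2 left out, transcripts were rare in these libraries except for those of a single gene. Of the 1795 lncRNA genes, 796 had no count in any sample, which allows up to 0.132 to 0.185 CPM per library, and 82 had a mean of at least 1 CPM. The 23 genes took 0.242% to 0.250% of all counts in mutant and 0.318% to 0.338% in control samples. lncRNA:CR42862 alone held 76.6% to 81.5% of these. Without it, the other 22 took 0.0551% to 0.0585% of counts in mutant and 0.0587% to 0.0635% in control samples. The 22 lay between 5.92 and 126 CPM in the mean over all samples. Per kilobase of exon, lncRNA:CR42862 again came first, at 412 CPM per kb, followed by lncRNA:mimi at 57.9 and lncRNA:CR42491 at 51.1 CPM per kb. lncRNA:Hsromega, with the second highest CPM, had a level of 5.78 CPM per kb over its long annotated exons, and the lowest of the 23, lncRNA:CR43650, had 0.642 CPM per kb. On either side of the minimum of 5 CPM, the lowest means inside were 6.66, 6.28 and 5.92 CPM (lncRNA:CR44832, lncRNA:CR43855 and lncRNA:CR30009) and the highest outside 4.78, 4.52 and 4.13 CPM (lncRNA:CR43241, lncRNA:CR45409 and lncRNA:CR43314). lncRNA:CR44701 on 2L had 5.23, 4.67 and 5.56 CPM in controls 1 to 3 but 0.153, 0.188 and 0.0494 CPM in mutants 1 to 3, so that its mean of 2.66 CPM kept it out.

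**Figure D1:**
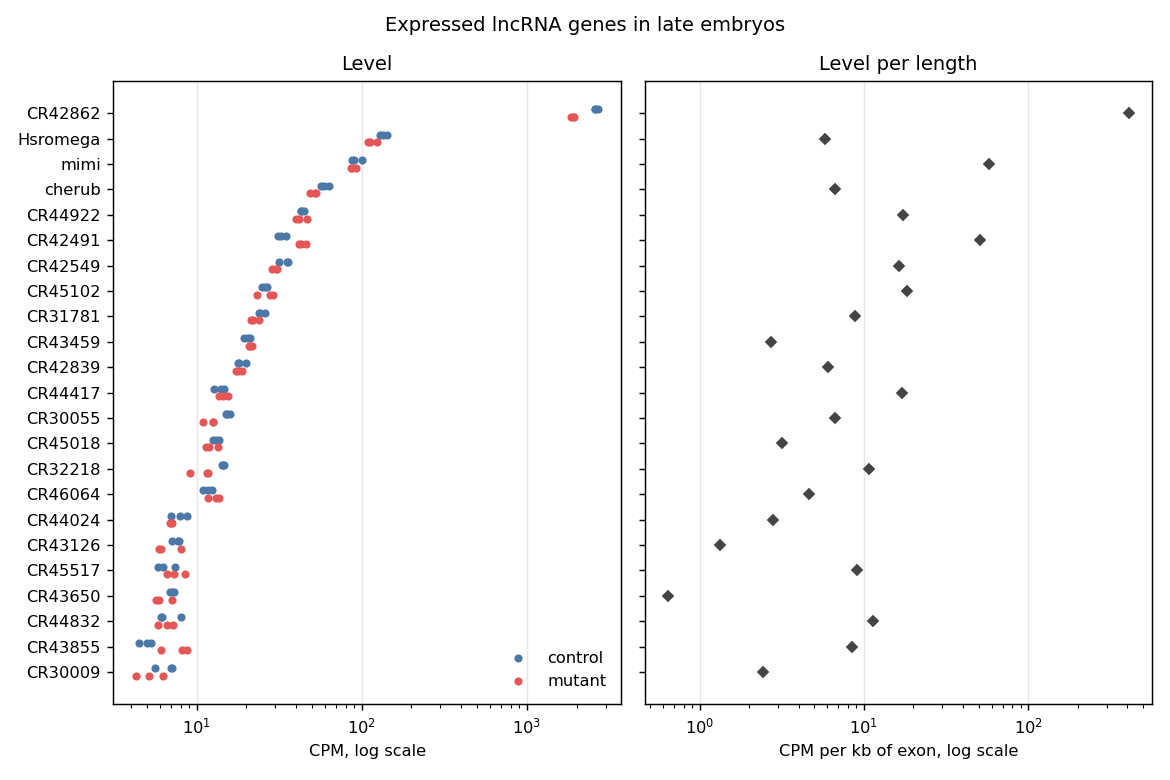
Left, TMM-scaled CPM (log axis) of each of the 23 genes in the 3 control and 3 mutant samples, 1 point per sample; right, the mean over all 6 samples per kilobase of exon (log axis). lncRNA:CR42862 lies far above the other genes on both scales, and lncRNA:Hsromega moves down from second place when its length is counted.

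Mutants and controls were compared with edgeR's quasi-likelihood test fitted on all 10312 genes that passed its low-count filter, with Benjamini-Hochberg adjustment over all of them and a call at an adjusted p below 0.05. All 23 lncRNA genes were tested, and 9 passed: 2 were higher and 7 lower in the mutants. That is 39.1% of the 23, against 39.7% of all tested genes (20.2% higher and 19.5% lower) and 46.1% of the 8233 tested genes that reached 5 CPM (23.6% higher and 22.4% lower), so the share called is near the background. The changes were small. The largest among the 23 was 1.56-fold, and 1 of the 23, lncRNA:CR43855, passed with at least 1.5-fold, against 3.96% of all tested genes; since this gene entered through its mutant level, nothing is read from that count. Groups did not overlap for 8 of the 23 (34.8%), against 47.8% of all tested genes and 53.4% of those with at least 5 CPM. The median log2 fold change of the 23 was -0.099, against 0.0010 over all tested genes. Taken sample by sample against the control mean, the median was -0.19, -0.0077 and -0.11 in mutants 1 to 3, while controls 1 to 3 had 0.0027, -0.023 and 0.024. Mutant 2 lay within the range of the controls, so the shift of the median did not separate the groups.

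Transcript length moved with the changes. Over the 10110 tested genes whose length was known, Spearman's rho of the log2 fold change with the longest transcript was -0.31, and over the 23 it was -0.46; both are across genes, which are not independent replicates. Of the 6 lncRNA genes with transcripts of at least 5000 bases, 3 fell and 0 rose by edgeR, while of the 5 under 1000 bases 2 rose and 0 fell. Over all tested genes, 690 of 1189 at or above 5000 bases fell and 44 rose, with a median log2 fold change of -0.14, and 163 of 1736 under 1000 bases fell and 517 rose, with a median of 0.11. A fit with each sample's trend on transcript length removed is therefore given beside the members below. It called 9 of the 23, 3 higher and 6 lower, or 39.1%, against 31.6% of all 10110 genes in that fit (16.7% higher and 14.9% lower) and 36.3% of those that reached 5 CPM (19.7% higher and 16.6% lower); 7 of these were called in both fits.

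**Figure D2:**
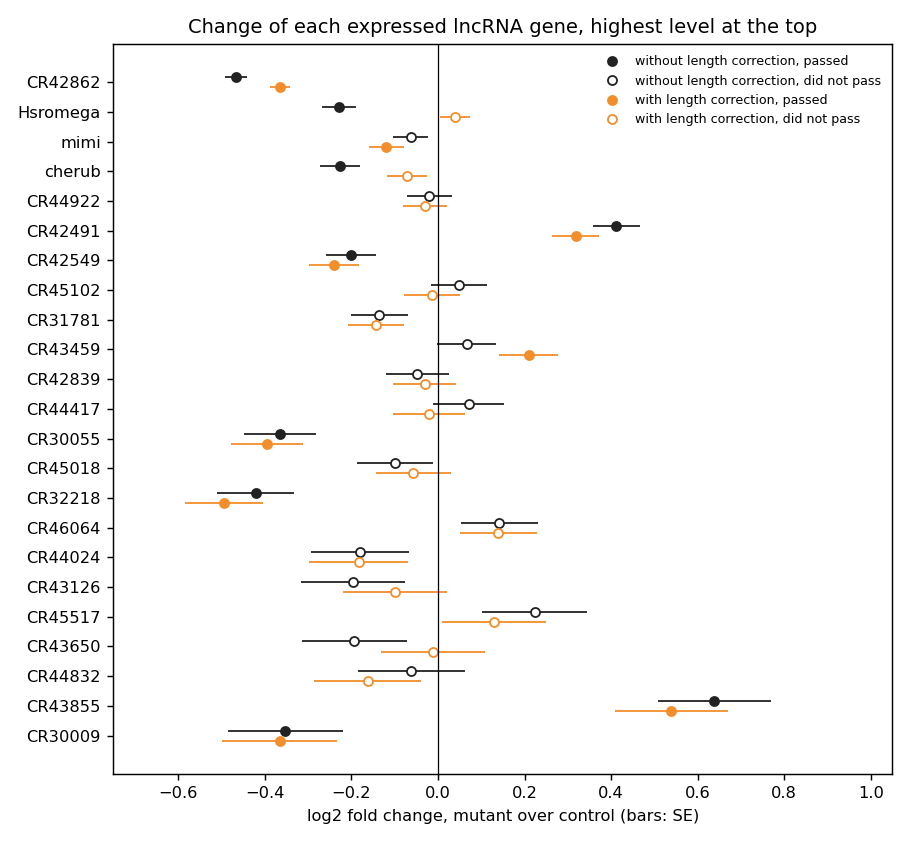
Log2 fold change of each of the 23 genes, mutant over control, with its standard error, without (black) and with (orange) removal of the length trend; filled points passed edgeR and open points did not. lncRNA:CR42862 and lncRNA:CR32218 stay on the left in both fits and lncRNA:CR43855 and lncRNA:CR42491 on the right, whereas lncRNA:Hsromega moves across 0.

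The most abundant lncRNA was lower in every mutant sample. lncRNA:CR42862 (FBgn0262109; 3L, 224106 to 230964, plus strand, BDGP6.54) has 5 annotated transcripts, the longest of 5480 bases, and 4.48% of its exon length is shared with CG33229 on the same strand. It had 1853, 1942 and 1896 CPM in mutants 1 to 3 and 2573, 2598 and 2694 CPM in controls 1 to 3. All mutants lay below all controls, by a margin much wider than the spread in either group. Its mean was 1897 ± 44.5 CPM in mutant and 2622 ± 64.3 CPM in control embryos (± SD, 3 samples a group), a log2 fold change of -0.47 (standard error 0.025, adjusted p = 7.04e-26 by edgeR), or 1.38-fold. Once the length trend was removed, the value was -0.37 (adjusted p = 3.50e-24 by edgeR; 2.06e-18 at most over its 15 alternatives). The neighbouring CG33229 fell as well, from 54.8 ± 0.200 to 43.2 ± 0.209 CPM (± SD, 3 samples a group), a log2 fold change of -0.34 (standard error 0.047, adjusted p = 8.90e-09 by edgeR). Reads in the shared exon part cannot be divided between both genes.

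**Figure D3:**
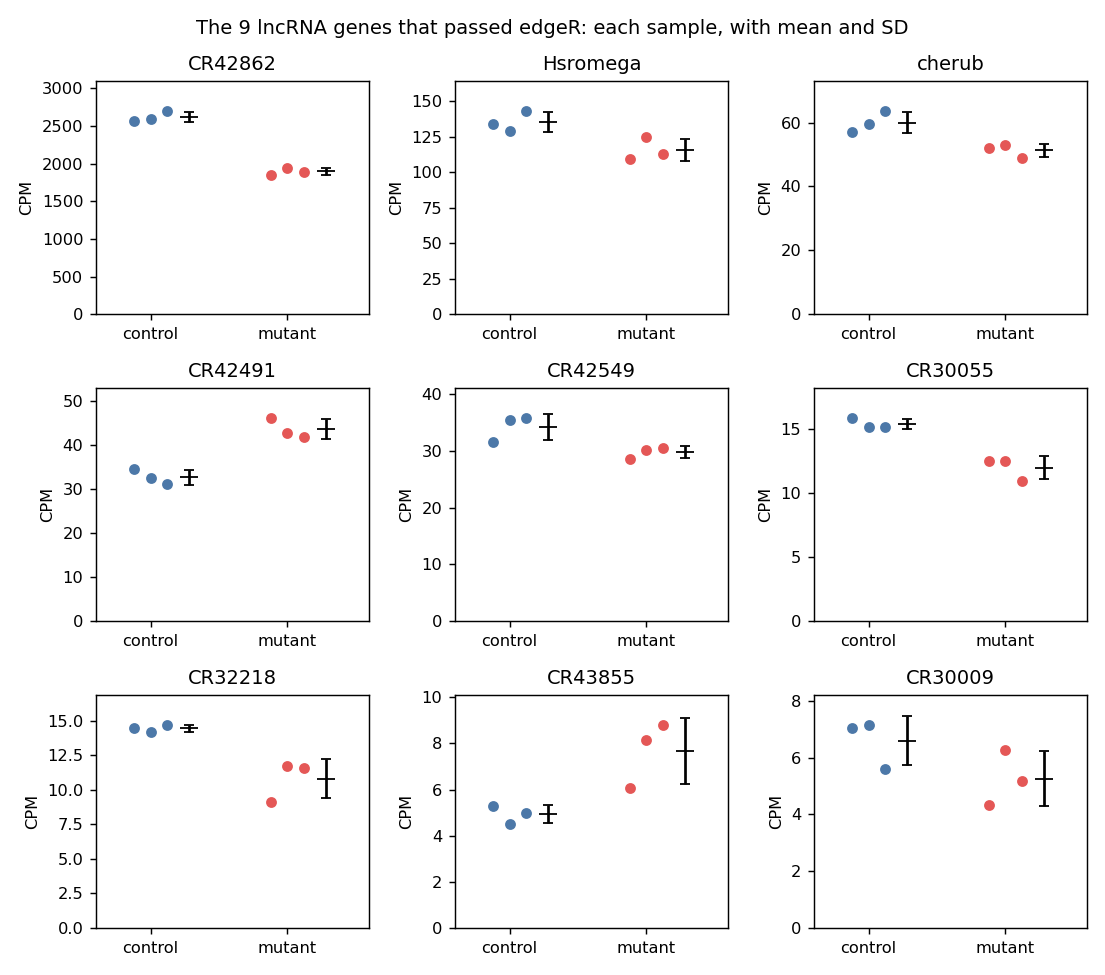
TMM-scaled CPM of the 9 lncRNA genes that passed edgeR in each control (blue) and mutant (red) sample, with the group mean and SD in black; each axis starts at 0. lncRNA:CR42491 and lncRNA:CR43855 are higher in all mutants and the others lower, and lncRNA:CR30009 is the gene whose groups overlap.

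Of the 3 genes among the 23 with a name rather than a CR number, lncRNA:Hsromega and lncRNA:cherub were slightly lower. Neither call outlasted removal of the length trend, whereas lncRNA:mimi passed only with that trend removed. lncRNA:Hsromega (FBgn0001234; 3R, 21296127 to 21317836, plus strand) is the heat-inducible gene whose nuclear transcript organises omega speckles, the nuclear bodies that hold hnRNP proteins. It had 109.5, 125 and 113 CPM in mutants 1 to 3 and 134, 129 and 143 CPM in controls 1 to 3. The groups did not overlap, although mutant 2 came close to control 2. The means were 116 ± 7.85 and 135 ± 6.88 CPM (± SD, 3 samples a group), a log2 fold change of -0.23 (standard error 0.040, adjusted p = 8.12e-06 by edgeR). Its longest annotated transcript has 21216 bases, the longest of the 23. Removal of the length trend brought it to 0.039 (adjusted p = 0.433 by edgeR; 8.11e-10 to 0.433 over its 15 alternatives). The gene has short and long transcripts, which these gene counts do not separate.

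lncRNA:cherub (FBgn0262972; 3R, 11247631 to 11256123, minus strand) is known from the fly larval brain, where its RNA is handed asymmetrically to a daughter cell of dividing neuroblasts and accumulates in brain tumours. It had 51.9, 53.0 and 48.9 CPM in mutants 1 to 3 and 57.0, 59.5 and 63.5 CPM in controls 1 to 3. Every mutant lay below every control. The means were 51.25 ± 2.14 and 60.0 ± 3.24 CPM (± SD, 3 samples a group), a log2 fold change of -0.23 (standard error 0.047, adjusted p = 5.39e-05 by edgeR). Its longest transcript has 8311 bases, and without the length trend the value was -0.072 (adjusted p = 0.244 by edgeR; 6.88e-06 to 0.244 over its 15 alternatives). CG5214, which ends 769 bases away on the opposite strand, went the other way, from 334 ± 5.47 to 386 ± 5.19 CPM (± SD, 3 samples a group), a log2 fold change of 0.21 (standard error 0.028, adjusted p = 5.65e-09 by edgeR).

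lncRNA:mimi (FBgn0051451; 3R, 23983503 to 23985065, plus strand) had 85.7, 91.8 and 87.6 CPM in mutants 1 to 3 and 87.5, 89.99 and 99.9 CPM in controls 1 to 3. The groups overlapped, and only control 3 stood above the mutants. The log2 fold change was -0.063 (standard error 0.041, adjusted p = 0.225 by edgeR). With the length trend removed it was -0.12 and passed edgeR (adjusted p = 0.0168; 0.0168 to 0.891 over its 15 alternatives).

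Of 21 named lncRNA genes in the files, 9 were tested, and 3 of these fell and 0 rose by edgeR: lncRNA:Hsromega, lncRNA:cherub and, below 5 CPM, lncRNA:Irar. That is 33.3% of the 9, against 39.7% of all tested genes (20.2% higher and 19.5% lower). Without the length trend, lncRNA:mimi and lncRNA:Irar fell and 0 rose, while 16.7% of all genes in that fit rose and 14.9% fell. lncRNA:Irar had 0.888 ± 0.174 CPM in mutant and 1.70 ± 0.426 CPM in control embryos (± SD, 3 samples a group), a log2 fold change of -0.94 (standard error 0.28, adjusted p = 0.00482 by edgeR). The bithorax complex transcripts, which lie among the posterior Hox genes, did not pass. lncRNA:iab8 had 4.07 ± 0.506 CPM in mutant and 3.97 ± 0.475 CPM in control embryos (± SD, 3 samples a group), with a log2 fold change of 0.013 (standard error 0.16), lncRNA:iab4 one of -0.13 (standard error 0.20) and lncRNA:bxd one of -0.058 (standard error 0.32). lncRNA:noe, known from the nervous system, had a log2 fold change of 0.39 (standard error 0.28). lncRNA:let7C, the precursor of the let-7 cluster microRNAs, and lncRNA:CRG had 0 counts in all 6 libraries.

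Of the 32 lncRNA genes with an annotated microRNA inside them on the same strand, 14 were tested. lncRNA:Hsromega, which contains mir-4951, was the 1 that passed. That is 7.14%, against 39.7% of all tested genes and 14.97% of the protein-coding genes at 1 to 5 CPM. Of the 14, 3 reached a mean of 5 CPM and the others did not. Neither share matches that mix of levels, so nothing is read from the 7.14%. lncRNA:CR43459 (FBgn0263413; 3R, 10093761 to 10101356, plus strand) contains mir-277, a regulator of branched-chain amino acid breakdown, and mir-34, known for its role in ageing neurons. It had 20.8, 21.8 and 21.1 CPM in mutants 1 to 3 and 20.5, 19.3 and 21.1 CPM in controls 1 to 3. The groups overlapped, with control 3 at the level of mutant 3, and the log2 fold change was 0.066 (standard error 0.068, adjusted p = 0.473 by edgeR). Without the length trend it was 0.21 and passed edgeR (adjusted p = 0.0115; 0.0115 to 0.787 over its 15 alternatives). Its neighbour Fmr1, which encodes an RNA-binding translational regulator and ends 64 bases away on the opposite strand, rose from 116 ± 1.49 to 127 ± 5.44 CPM (± SD, 3 samples a group), a log2 fold change of 0.13 (standard error 0.035, adjusted p = 0.00195 by edgeR).

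lncRNA:CR43650 (FBgn0263659; 2R, 16829095 to 16839494, plus strand) contains mir-8, the fly member of the miR-200 family. It had 5.95, 7.14 and 5.68 CPM in mutants 1 to 3 and 6.94, 7.28 and 7.07 CPM in controls 1 to 3. Mutant 2 lay among the controls and the other 2 mutants below them. The log2 fold change was -0.19 (standard error 0.12, adjusted p = 0.207 by edgeR), and with the length trend removed it was -0.011 over a longest transcript of 10400 bases.

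A snoRNA-bearing lncRNA beside a ribosomal protein gene was higher in the mutants. lncRNA:CR42491 (FBgn0259993; X, 762615 to 763810, minus strand) contains snoRNA:Psi18S-531 and shares 50.5% of its exon length with RpL22, a gene of the large ribosomal subunit, on the same strand. It had 46.2, 42.9 and 41.8 CPM in mutants 1 to 3 and 34.6, 32.5 and 31.2 CPM in controls 1 to 3. All mutants exceeded all controls. The means were 43.6 ± 2.27 and 32.7 ± 1.70 CPM (± SD, 3 samples a group), a log2 fold change of 0.41 (standard error 0.054, adjusted p = 2.37e-09 by edgeR), or 1.33-fold, and 0.32 with the length trend removed (adjusted p = 8.23e-07 by edgeR; 1.19e-06 at most over its 15 alternatives). RpL22 itself rose by less, from 1073 ± 31.3 to 1138 ± 42.7 CPM (± SD, 3 samples a group), a log2 fold change of 0.085 (standard error 0.027, adjusted p = 0.00802 by edgeR), which without the length trend was 0.0075 and did not pass (adjusted p = 0.862). Given the shared exon, the division of reads between them is uncertain.

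The Uhg genes, the spliced snoRNA host genes of the fly whose symbols lack the lncRNA prefix, were read beside it. Of 7 tested, 3 rose and 0 fell by edgeR, against 20.2% and 19.5% of all tested genes. Their longest transcripts have 419 to 1065 bases, and of 1736 tested genes under 1000 bases 517 rose and 163 fell. Uhg5 rose from 42.5 ± 1.02 to 63.6 ± 3.40 CPM (± SD, 3 samples a group), a log2 fold change of 0.58 (standard error 0.047, adjusted p = 7.29e-17 by edgeR), Uhg4 from 21.8 ± 1.19 to 31.0 ± 1.09 CPM with 0.51, and Uhg3 with 0.18. Uhg1, Uhg2, Uhg7 and Uhg8 had log2 fold changes of 0.10, 0.036, 0.27 and 0.20 and did not pass. With the length trend removed, 2 of the 7 passed, both higher, against 16.7% higher and 14.9% lower among all genes in that fit. Of the 3 genes with an lncRNA symbol that contain a snoRNA, lncRNA:CR42491 was the 1 tested.

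Among the 4 lncRNAs inside an intron of a coding gene, 1 rose and 2 fell. lncRNA:CR43855 (FBgn0264437; 2L, 8590370 to 8594489, minus strand) lies in an intron of Sema1a, on the opposite strand; Sema1a encodes a transmembrane semaphorin that guides axons. It had 6.06, 8.14 and 8.79 CPM in mutants 1 to 3 and 5.27, 4.50 and 4.99 CPM in controls 1 to 3. All mutants were above all controls, mutant 1 by the least. The means were 7.66 ± 1.43 and 4.92 ± 0.394 CPM (± SD, 3 samples a group), a log2 fold change of 0.64 (standard error 0.13, adjusted p = 4.71e-05 by edgeR), or 1.56-fold, and 0.54 with the length trend removed (adjusted p = 5.55e-04 by edgeR; 0.00518 at most over its 15 alternatives). Since its control mean was under 5 CPM, it entered the 23 through the mutants, which fixed its direction. Sema1a moved the other way, from 117 ± 2.20 to 101 ± 6.29 CPM (± SD, 3 samples a group), a log2 fold change of -0.21 (standard error 0.037, adjusted p = 3.10e-06 by edgeR). Without the length trend Sema1a had -0.038 and did not pass (adjusted p = 0.449 by edgeR).

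lncRNA:CR30055 (FBgn0050055; 2R, 12589239 to 12591395, plus strand) lies in an intron of Sin3A, which encodes a scaffold of histone deacetylase complexes, on the opposite strand. It had 12.5, 12.5 and 10.97 CPM in mutants 1 to 3 and 15.9, 15.2 and 15.2 CPM in controls 1 to 3. The groups were well apart, with a log2 fold change of -0.37 (standard error 0.084, adjusted p = 2.49e-04 by edgeR; 7.94e-05 to 0.00990 over its 15 alternatives). Sin3A fell by less, from 251 ± 3.29 to 224 ± 1.19 CPM (± SD, 3 samples a group), a log2 fold change of -0.17 (standard error 0.030, adjusted p = 4.51e-06 by edgeR). The fall was lost without the length trend, at -0.0039 (adjusted p = 0.942 by edgeR).

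lncRNA:CR32218 (FBgn0052218; 3L, 19895216 to 19896391, minus strand) lies within introns of Su(Tpl), which encodes the transcription elongation factor ELL, and of Mi-2, which encodes a chromatin remodelling ATPase, both on its own strand. It had 9.16, 11.7 and 11.6 CPM in mutants 1 to 3 and 14.5, 14.2 and 14.7 CPM in controls 1 to 3. Mutant 1 was the lowest, and all mutants were below the narrow range of the controls. The log2 fold change was -0.42 (standard error 0.090, adjusted p = 8.55e-05 by edgeR; 4.24e-06 to 0.00785 over its 15 alternatives). Its surrounding genes had log2 fold changes of -0.089 for Su(Tpl) (standard error 0.033, adjusted p = 0.0252 by edgeR) and 0.10 for Mi-2 (standard error 0.034, adjusted p = 0.0138 by edgeR). Without the length trend both were positive, at 0.037 for Su(Tpl), which did not pass (adjusted p = 0.396), and 0.22 for Mi-2, which did.

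lncRNA:CR44417 (FBgn0265590; 2R, 17869027 to 17869857, plus strand), the fourth intronic gene, lies in Mapmodulin on the opposite strand. It ranged from 13.7 to 15.4 CPM in mutant and from 12.8 to 14.7 CPM in control samples, so the groups overlapped, with a log2 fold change of 0.071 (standard error 0.083, adjusted p = 0.536 by edgeR). Mapmodulin rose from 116 ± 3.67 to 131 ± 1.62 CPM (± SD, 3 samples a group), a log2 fold change of 0.17 (standard error 0.035, adjusted p = 5.19e-05 by edgeR).

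Of the 4 genes whose exons overlap a coding gene on the same strand, lncRNA:CR42549 and lncRNA:CR45018 remain to be described. lncRNA:CR42549 (FBgn0260722; 3R, 9548104 to 9551806, minus strand) shares 4.93% of its exon length with mura, a RING finger gene. It had 28.5, 30.2 and 30.6 CPM in mutants 1 to 3 and 31.6, 35.5 and 35.8 CPM in controls 1 to 3. The groups did not overlap, with control 1 nearest to the mutants. The log2 fold change was -0.20 (standard error 0.058, adjusted p = 0.00366 by edgeR; 5.38e-04 to 0.0391 over its 15 alternatives), and mura had -0.27 (standard error 0.044, adjusted p = 2.58e-05 by edgeR). RnpS1, an exon junction complex gene that starts within 1 kb on the other strand, had 0.17 (standard error 0.062, adjusted p = 0.0213 by edgeR), and 0.11 without the length trend, where it did not pass (adjusted p = 0.188). lncRNA:CR45018 (X, 13304005 to 13308004), which shares 35.8% of its exon length with IP3K2 (not analysed here), ranged from 11.4 to 13.5 CPM in mutant and from 12.5 to 13.6 CPM in control samples, with a log2 fold change of -0.099 (standard error 0.087, adjusted p = 0.394 by edgeR).

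The remaining gene that passed lies on the chromosome arm of lola. lncRNA:CR30009 (FBgn0050009; 2R, 10261315 to 10263827, minus strand) is 218 kb from the annotated start coordinate of lola. It had 4.33, 6.26 and 5.19 CPM in mutants 1 to 3 and 7.03, 7.14 and 5.61 CPM in controls 1 to 3. The groups overlapped, since mutant 2 exceeded control 3. The log2 fold change was -0.35 (standard error 0.13, adjusted p = 0.0283 by edgeR). The call was lost with DESeq2 (adjusted p = 0.169), without mutant 1 (0.237), without mutant 3 (0.0782), without control 1 (0.107) and without control 2 (0.138), over a range of 0.00685 to 0.237. CG12911, which ends 39 bases away on the opposite strand, had a log2 fold change of -0.18 (standard error 0.066, adjusted p = 0.0232 by edgeR). No source used here gives the breakpoints of the deficiency.

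The 14 genes that did not pass had log2 fold changes of -0.20 to 0.22, with standard errors of 0.041 to 0.12 and edgeR adjusted p of 0.0937 to 0.796; 9 of the values were negative and 5 positive. The best estimated were lncRNA:mimi and lncRNA:CR44922 (3R, 4375084 to 4377600), which had 43.0 ± 3.52 CPM in mutant and 43.4 ± 0.868 CPM in control embryos (± SD, 3 samples a group), a log2 fold change of -0.020 (standard error 0.052). lncRNA:CR42839 (3R, 16004321 to 16008073) ends 236 bases from srp, which encodes the GATA factor of blood and fat body, and had 17.96 ± 0.777 and 18.6 ± 1.203 CPM (± SD, 3 samples a group), with log2 fold changes of -0.048 for itself and -0.065 for srp. lncRNA:CR43126 (3R, 28586048 to 28591386) starts 784 bases from fkh, the forkhead factor of salivary gland and gut, on the other strand. It had 5.90, 8.08 and 6.08 CPM in mutants 1 to 3 and 7.73, 7.85 and 7.07 CPM in controls 1 to 3. Mutant 2 was the highest of all 6 samples and the other 2 mutants the lowest, and the log2 fold change was -0.20 (adjusted p = 0.197 by edgeR), or -0.34 without mutant 2 (adjusted p = 0.0352; 0.0352 to 0.576 over its 15 alternatives). The gene fkh fell from 49.5 ± 2.72 to 41.2 ± 1.34 CPM (± SD, 3 samples a group), a log2 fold change of -0.27 (standard error 0.050, adjusted p = 1.11e-05 by edgeR).

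On the X, lncRNA:CR45102 (3701857 to 3703285) begins 185 bases after the end of Mnt, a Max-binding repressor gene, on the same strand. It had 26.7 ± 2.95 CPM in mutant and 25.8 ± 0.902 CPM in control embryos (± SD, 3 samples a group), a log2 fold change of 0.049 (standard error 0.065), while Mnt fell with -0.25 (standard error 0.052, adjusted p = 7.11e-05 by edgeR). lncRNA:CR45517 (5428483 to 5429256) had a log2 fold change of 0.22 (standard error 0.12, adjusted p = 0.140 by edgeR); without control 3 it was 0.32 and passed (adjusted p = 0.0482; 0.0482 to 0.565 over its 15 alternatives). lncRNA:CR44832 (5790952 to 5791536) had one of -0.062. Off the X, lncRNA:CR31781 on 2L had a log2 fold change of -0.14 (adjusted p = 0.0937 by edgeR), lncRNA:CR46064 on 2R one of 0.14, and lncRNA:CR44024 on chromosome 4 one of -0.18; lgs, the Wnt pathway gene nearest to lncRNA:CR44024, had -0.11 (adjusted p = 0.0127 by edgeR), and -0.016 without the length trend, where it did not pass (adjusted p = 0.790).

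Each gene was put in 1 position class, and overlap with a coding gene went before a divergent start. By position, 3 of the 13 intergenic genes fell and 0 rose by edgeR. Among the 4 inside introns 1 rose and 2 fell, and among the 4 with same-strand exon overlap 1 rose and 2 fell. Neither of the 2 in the class that starts divergently within 1 kb of a coding gene passed. lncRNA:CR42549, which passed, also starts divergently, within 1 kb of RnpS1, but was counted under exon overlap. By chromosome, 3 of 8 fell on 3R, 2 of 5 on 2R and 2 of 2 on 3L, 1 of 2 rose on 2L and 1 of 5 on the X, and the gene on chromosome 4 did not pass. Over all tested genes, 20.2% were higher and 19.5% lower by edgeR. By arm, edgeR called, in either direction, 37.2% of tested genes on 3R, 43.3% on 2R and 37.5% on 3L. The shares were 43.3% on 2L, 36.5% on the X and 57.3% on chromosome 4. The counts of lncRNA genes are too small to set against these shares.

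The coding gene that overlaps or lies nearest to each of the 23 was read beside it. Of these 23 coding genes, 19 were tested and 14 passed, 4 higher and 10 lower, which is 73.7%; 18 of the 19 reached 5 CPM, where the share over all genes was 46.1%. Without the length trend 9 of the 19 passed, 3 higher and 6 lower, which is 47.4% against 36.3% of genes at that level. In the uncorrected fit, for all 9 lncRNA genes that passed, the coding neighbour passed too, in the same direction for 7 and in the opposite direction for lncRNA:cherub with CG5214 and lncRNA:CR43855 with Sema1a. Without the length trend, 4 of these 9 neighbours passed. Of the 9 lncRNA genes called in that fit, 5 had a counted neighbour that passed, all in the same direction. These counts take 1 coding gene per lncRNA gene, which for lncRNA:CR32218 was Su(Tpl). Mi-2, which surrounds lncRNA:CR32218 as well, passed in the opposite direction in both fits, with 0.10 and 0.22. RnpS1 beside lncRNA:CR42549 did so in the uncorrected fit, with 0.17. Spearman's rho between the log2 fold changes of the 19 pairs was 0.37, as a description across genes that share libraries, position and in part reads. No source used here gives the strand setting of the counting. No exon of the 23 overlaps an exon of a coding gene on the other strand in the annotation used. On that strand lncRNA:CR46064 overlaps the noncoding CR43281. Unspliced reads of a surrounding gene could be counted for an intronic lncRNA on the opposite strand if strand was ignored. For lncRNA:CR32218, on the same strand as both genes around it, such reads could be counted whether or not strand was used.

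**Figure D4:**
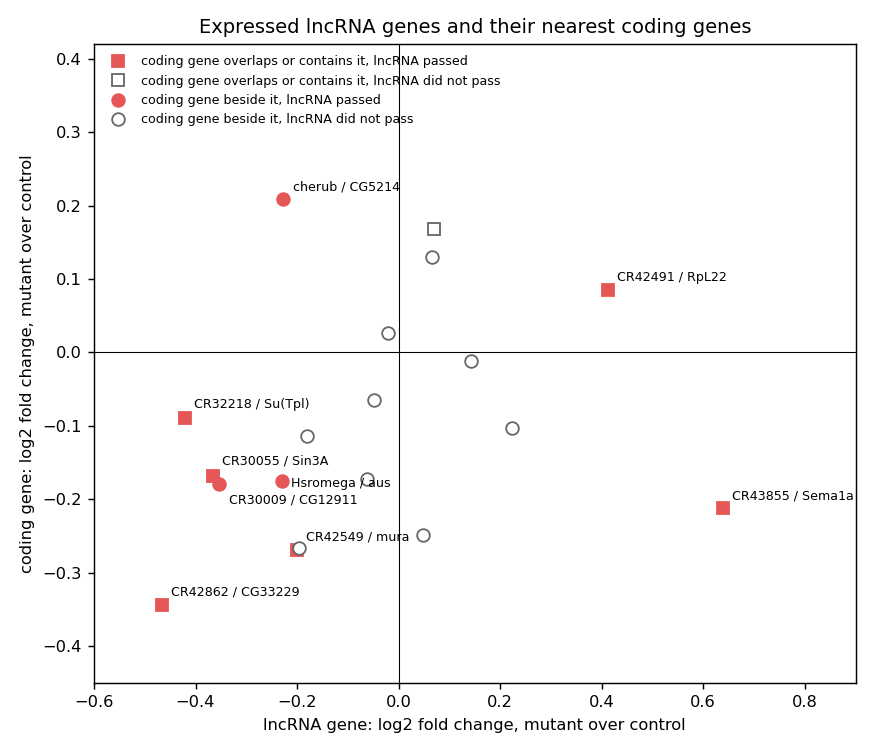
Log2 fold change of 19 expressed lncRNA genes against that of the coding gene that overlaps them (squares) or lies nearest (circles), both mutant over control; red marks lncRNA genes that passed edgeR, with their names. Of the 9 red points, 7 lie in quadrants of equal sign and cherub with CG5214 and CR43855 with Sema1a do not; the length trend is not removed here.

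Among the lncRNA genes under 5 CPM that passed edgeR, more fell than rose, in counts that the low-count filter helped to shape. Of the 149 lncRNA genes tested at any level, 5 rose and 25 fell, which is 3.36% and 16.8%, against 20.2% and 19.5% of all tested genes. The 149 include the 23, of which 2 rose and 7 fell, and 8233 of the 10312 tested genes reached 5 CPM. With the length trend removed, 4 of the 149 rose and 24 fell, against 16.7% and 14.9% of all genes in that fit. The 59 with a mean of 1 to 5 CPM held 2 that rose and 12 that fell, while of 1309 protein-coding genes at the same level 95 rose and 101 fell. Of the 67 tested lncRNA genes below 1 CPM, 1 rose and 6 fell, which is 1.49% and 8.96%. Of 71 tested genes with the antisense prefix, 5 rose and 7 fell, which is 7.04% and 9.86%. Both pairs lie below the 20.2% and 19.5% of all tested genes, and no share of genes at a matched level is given for them. The genes that fell include lncRNA:CR44701 and lncRNA:CR44603, which passed the low-count filter through the controls, so their direction was fixed. Other genes near the filter were not checked for the same selection. All counts in this paragraph were read after the values were seen, and their difference was not tested.

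Some of the lncRNA genes under the minimum changed by more than any of the 23, and those named here were chosen after their values were seen. The largest was that of lncRNA:CR44701, with a log2 fold change of -5.29 (standard error 0.32, adjusted p = 5.11e-23 by edgeR) that rests on 1 to 3 counts in each mutant library. With 99 to 113 counts in each control library, it passed the low-count filter through the controls only. That fixed its direction, so nothing is read from its p-value. lncRNA:CR43301 (3R) had 1.75 ± 0.333 CPM in mutant and 4.22 ± 0.785 CPM in control embryos (± SD, 3 samples a group), a log2 fold change of -1.23 (standard error 0.19, adjusted p = 1.88e-07 by edgeR). lncRNA:CR44830 (2R) had 1.16 ± 0.191 and 2.72 ± 0.335 CPM (± SD, 3 samples a group), with -1.23 (standard error 0.23, adjusted p = 1.22e-05 by edgeR). lncRNA:CR44603 (2L) had 0.625 ± 0.292 and 2.12 ± 0.432 CPM, with -1.81 (standard error 0.30, adjusted p = 6.93e-07 by edgeR). With 6 counts in mutant 1, it too passed the filter through the controls, and nothing is read from its p-value. In these 3 genes and in lncRNA:CR44701 the groups did not overlap. Of the 2 genes at 1 to 5 CPM that rose, lncRNA:CR44138 (3R) had groups that did not overlap and went from 1.94 ± 0.585 to 3.24 ± 0.506 CPM (± SD, 3 samples a group), a log2 fold change of 0.78 (standard error 0.20, adjusted p = 0.00123 by edgeR).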

How the data were processed

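The deposited tables held raw read counts, in whole numbers, for each FlyBase gene. The tools listed in the submitters' processing notes are Subread 1.5.1, bedtools 2.25.0, STAR 2.5.2b and SAMtools 1.3.1, with build BDGP6. What each did, whether strand was used, how multi-mapping reads were counted and which annotation release was taken are not stated in those notes. Groups and replicate numbers came from the sample titles. Symbols, positions and transcript lengths came from the Ensembl release 115 annotation of BDGP6.54, which matched 17253 of 17559 identifiers; the 306 without a match held 4.37% to 4.49% of counts, and lncRNA genes among them could not be found by symbol.

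The test was that of edgeR 4.0.16 under R 4.3.3 (TMM scaling, filterByExpr by group, robust glmQLFit and glmQLFTest, mutant against control, 2-sided, Benjamini-Hochberg over 10312 genes). The common biological coefficient of variation was 2.78%. A standard error is the size of the log2 fold change over the root of its F statistic. CPM in the comparisons are TMM-scaled; per-kilobase levels use the union of annotated exons. Alternatives were RLE and upper-quartile scaling, other low-count filters, DESeq2 1.42.0, limma-voom (limma 3.58.1), a replicate block, each sample left out, the 20 most abundant genes left out, other minimum levels, a 2-fold requirement, and a lowess trend of each sample's log2 CPM (prior count 2) on log2 length of the longest transcript removed as an offset. The procedure was tested on simulated data that had a single dispersion for all genes and no trend on transcript length, so that test does not bear on the length trend. Replicates differed by more than sampling noise (chi-square per degree of freedom 1.94 to 6.14), so none was treated as a copy.

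Fixed naming rules covered the named lncRNAs, the 6 most abundant, members that passed with at least 1.5-fold change, the 3 genes on each side of the minimum and coding neighbours; all 23 are named, the others after their values were seen. The lists were named lncRNAs, Uhg genes, holders of microRNAs or snoRNAs, position classes, chromosome arms and markers of 10 tissues. Members, lists and tests were chosen with earlier results of these data known. Counts of 0 allow 3 counts per library, and such limits cover counting error only.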

Additional observations from a re-analysis of the deposited data

How the results depend on the processing

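The count of 9 called genes was 8 to 10 under RLE and upper-quartile scaling, both other low-count filters, DESeq2, limma-voom, removal of the 20 most abundant genes, the length trend and each sample left out (8 to 10), and it was 7 with a minimum of 10 CPM. A 2-fold requirement left 0 (at an unadjusted p below 0.05 without a fold requirement, 2 were higher and 8 lower), and a minimum of 1 CPM gave 23 called of 82. The median log2 fold change of the 23 stayed between -0.13 and -0.057 in all of these, and samples left out gave -0.13 to -0.088. Same-numbered mutant and control samples did not deviate together (correlations 0.023, -0.028 and 0.043), so the numbers were not taken as pairs; with the replicate block 9 were called and the median was -0.094. Of 345 values of single genes under alternatives, 327 kept their direction and side of the threshold, 4 gained a call, 8 turned sign and 7 lost a call, of which 1, that of Hsromega, also turned. With the length trend removed, Hsromega turned to 0.039, CR45102 to -0.013 and CR44417 to -0.021, none of them past the threshold. With samples left out, the other turns lay within ranges of -0.081 to 0.026 for CR44922, -0.017 to 0.14 for CR45102, -0.077 to 0.00055 for CR42839 and -0.14 to 0.082 for CR44832. The losses were those of Hsromega, cherub and CR30009 given above, and the causes were not tested. Depth limits the low genes: standard errors rose from 0.025 at 1897 CPM to 0.13 near 5 CPM.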
